A study of Homo sapiens with 10 samples.

Results

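The enzymes described here are 10 histone H3 lysine methyltransferases other than DOT1L, namely KMT2A, KMT2B, KMT2C, KMT2D, SETD1A, SETD1B, SETD2, NSD1, NSD2 and EZH2. They were chosen by gene symbol from the 18034 gene IDs listed in the deposited tables, and all 10 were found. Their RNA was followed in HCT116, a colorectal carcinoma line in long-standing use, over 10 libraries. The inhibitor experiment, on cells of control genotype, set DMSO, the solvent, against 72 h of 10 µM EPZ (EPZ-5676, a small-molecule inhibitor of DOT1L). In the other, the knockdown experiment, all cells carried an shRNA against CDK9, and the 3 groups are named EV, WT (wild-type CDK9 put back) and K56A (put back as a CDK9 whose lysine 56 is alanine). What EV stands for is not spelled out. Each of the 5 groups had 2 libraries, and the labels do not say whether these came from separate cultures, so p-values measure only the spread between these libraries, which may be technical. The labels also do not say whether a line is 1 clone. Values are FPKM (fragments per kilobase of transcript, scaled to library size), summed over the transcripts of a gene. The 3 knockdown groups were deposited in 2 tables, and their gene sums cover the transcripts listed in both, unless said otherwise. Percent shares of single transcripts are of all transcripts listed for the gene. The sequencing depth behind them is unknown, as no counts are given.

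Histone H3 carries methyl groups on several lysines, and different enzymes write them. Methylation of lysine 4 (H3K4) is written by 6 related enzymes that each work in a COMPASS complex and is known from active promoters and enhancers. Methylation of lysine 36 (H3K36) is laid down along transcribed genes, where SETD2 travels with elongating RNA polymerase II, while methylation of lysine 27 (H3K27) is written by EZH2, the catalytic subunit of PRC2, and is known from silenced genes. DOT1L, the target of EPZ, writes lysine 79 of the same histone, and CDK9 is the kinase that releases paused RNA polymerase II. Changes in the RNA of these enzymes do not measure their activity or the marks.

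None of the 10 enzymes passed the test (limma) at the level of the gene in any of the 4 comparisons made. The transcripts that make up their RNA were also set side by side between the inhibitor and the knockdown libraries. By mean share, EZH2, NSD1 and KMT2D had another leading transcript in each, as did 13.7% of 8717 genes. For KMT2D the leader also differed between libraries of the same experiment. The share of FPKM that moved between transcripts was largest, of the 10, for NSD1 and EZH2. In the knockdown libraries the leading EZH2 transcript was one annotated for nonsense-mediated decay, a pathway that degrades RNA with an early stop codon. In the DMSO and EPZ libraries it was a coding one.

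The libraries had the markers of an epithelial line, with a few gaps. EPCAM, KRT8, KRT18 and CDH1 were present in every library, whereas VIL1 was listed at 0 throughout and KRT20 was at 0.0254 to 0.31 FPKM. Summed over the 7 colon epithelial markers, libraries held 1959 to 2097 FPKM in the inhibitor experiment and 1255 to 1349 in the knockdown experiment. Of the 11 markers of other cell types, 7 were listed at 0 in all libraries, among them PTPRC of leukocytes, DCN of fibroblasts and CDH5 of endothelium, and COL1A1 alone exceeded 1 FPKM, at 19.3 to 36.2. Genes of the mitochondrial genome held 17.3% to 19.3% of all FPKM in the inhibitor libraries, 27.1% to 27.9% in EV and WT, and 25.3% and 25.4% in K56A. With FPKM scaled without these genes, 0 enzymes passed in any comparison, and of their log2 fold changes only that of KMT2A for K56A versus EV changed sign, from 0.01 to -0.00879. DOT1L itself stood at 12.6 and 12.5 FPKM with DMSO, 10.7 and 10.4 with EPZ, 324 and 343 for EV, 578 and 568 for WT, and 733 and 703 for K56A. CDK9 was at 37.6 to 43.9 FPKM in DMSO and EPZ, 16.4 and 19.4 for EV, and 2500 to 3060 in WT and K56A. The labels used here name no DOT1L construct, so what the high DOT1L values of the knockdown libraries stand for is not known. The knockdown groups differed in both values, which cannot be told apart as sources of a difference.

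Among the H3K4 enzymes, KMT2D (chr12:49018978-49060794, minus strand, GRCh38), which with KMT2C marks enhancers, had the highest summed FPKM. It was at 29.8 and 28.5 FPKM with DMSO, 31.02 and 30.9 with EPZ, 33.9 and 35.98 for EV, 33.5 and 33.2 for WT, and 35.3 and 35.7 for K56A. KMT2D thus stayed within a narrow range inside each experiment.

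KMT2A (chr11:118436490-118526832, plus strand), known as MLL1 and for its fusions in leukaemia, which often recruit DOT1L, came next. It was at 20.7 and 18.1 FPKM with DMSO, 20.8 and 20.7 with EPZ, 29.5 and 29.6 for EV, 29.5 and 31.2 for WT, and 28.99 and 30.5 for K56A. The 6 knockdown libraries lay close together and above the inhibitor libraries, and DMSO replicate 2 was the lowest of all 10 libraries.

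KMT2B (chr19:35717973-35738878, plus strand), the closest relative of KMT2A, was at 17.7 and 12.8 FPKM with DMSO, 13.6 and 12.4 with EPZ, 20.5 and 20.3 for EV, 21.2 and 19.4 for WT, and 22.8 and 21.9 for K56A. Its DMSO replicate 1 stood well above the other 3 inhibitor libraries, and both K56A libraries stood above all EV and WT libraries.

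The other enhancer enzyme, KMT2C (chr7:152134922-152436641, minus strand), was at 9.74 and 10.1 FPKM with DMSO, 10.3 and 10.3 with EPZ, 9.73 and 9.16 for EV, 9.47 and 10.1 for WT, and 9.86 and 10.2 for K56A. KMT2C has partial near-identical copies elsewhere in the genome, so reads may be split between them and its level is uncertain. On these sums all 10 libraries stood close together. Over all transcripts of their own table, the WT libraries were at 10.5 and 11.1 FPKM.

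SETD1A and SETD1B are the catalytic subunits that write most of the promoter-wide H3K4 trimethylation. SETD1A (chr16:30957754-30984664, plus strand) was at 14.04 and 12.9 FPKM with DMSO, 13.0 and 11.6 with EPZ, 11.8 and 10.4 for EV, 11.2 and 10.8 for WT, and 12.5 and 11.9 for K56A. SETD1B (chr12:121804009-121832656, plus strand) was at 7.05 and 6.92 with DMSO, 7.12 and 6.16 with EPZ, 7.20 and 7.01 for EV, 6.61 and 6.72 for WT, and 7.77 and 6.26 for K56A. SETD1B was the lowest of the 10 enzymes in all 5 groups by mean, and its K56A replicates lay further apart than those of any other group.

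Among the H3K36 enzymes, NSD2 (chr4:1871393-1982206, plus strand) makes dimethylated H3K36 and is known for a translocation in multiple myeloma. It was at 32.2 and 38.7 FPKM with DMSO, 33.0 and 39.2 with EPZ, 55.6 and 65.1 for EV, 58.0 and 59.6 for WT, and 64.7 and 61.8 for K56A. NSD2 was the highest of the 10 by mean in every group. Its replicates 1 and 2 with DMSO and in EPZ were further apart than the 2 group means.

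NSD1 (chr5:177133079-177300213, plus strand), the relative of NSD2 that is mutated in Sotos syndrome, was at 14.4 and 13.3 FPKM with DMSO, 12.9 and 13.8 with EPZ, 9.23 and 9.84 for EV, 9.91 and 9.51 for WT, and 8.69 and 9.62 for K56A. SETD2 (chr3:47016429-47164113, minus strand), the enzyme for trimethylated H3K36, was at 16.4 and 17.0 with DMSO, 16.4 and 17.7 with EPZ, 14.8 and 15.6 for EV, 16.0 and 16.6 for WT, and 16.4 and 16.6 for K56A. For SETD2, both EV libraries were below all other libraries, and the groups of the inhibitor experiment overlapped.

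EZH2 (chr7:148807383-148884321, minus strand) was at 29.1 and 34.5 FPKM with DMSO, 28.8 and 32.0 with EPZ, 46.0 and 48.6 for EV, 47.3 and 51.0 for WT, and 48.1 and 49.5 for K56A. Within each experiment its groups overlapped. In DMSO and in EPZ, replicate 1 was the lower for EZH2 as for NSD2, SETD2 and KMT2C.

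**Figure D1:**
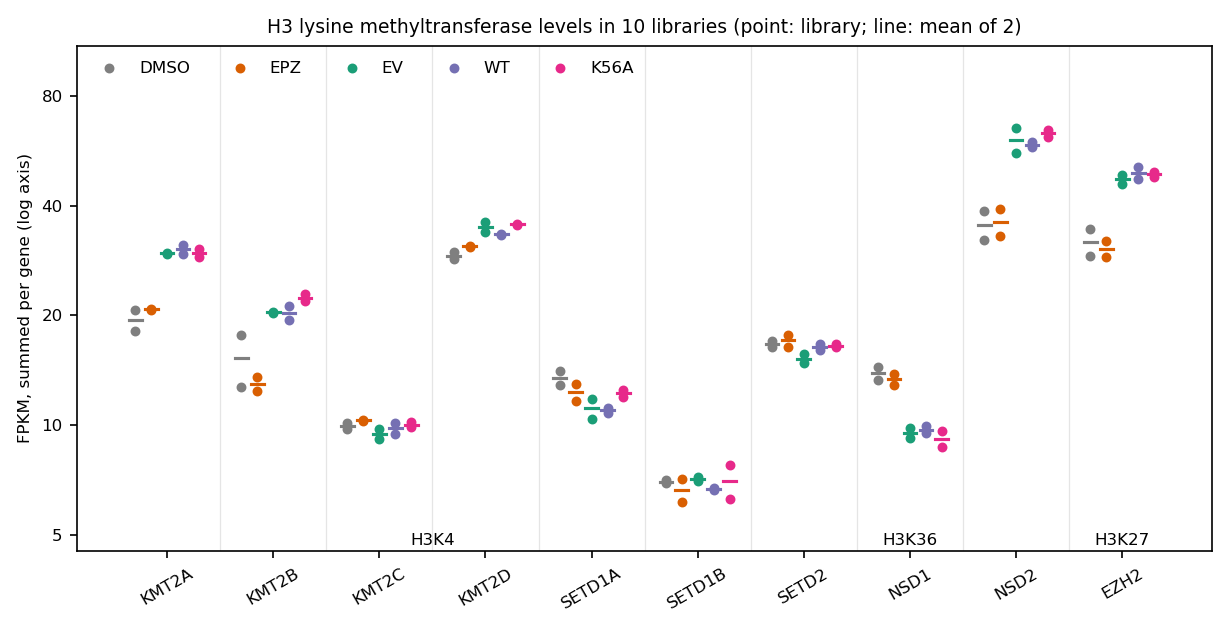
FPKM summed per gene (log axis) for the 10 enzymes in each library, with points for libraries, lines for the mean of 2 and colours for the 5 groups. Within each experiment the groups of a gene sit close together, with NSD2 highest at 32.2 to 65.1 FPKM and SETD1B lowest at 6.16 to 7.77 FPKM.

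The order of the levels was much the same in all groups. FPKM is scaled for transcript length, so genes can be ordered, here by sums that include noncoding transcripts. Coding transcripts alone gave another order. With all listed coding transcripts summed for EV, EZH2 was at 20.5 and 21.4 FPKM, below KMT2D at 32.1 and 33.4. KMT2C, at 5.25 and 4.62, was then below SETD1B, at 7.20 and 7.01. Much of the KMT2D sum lay in KMT2D-202, which covers only chr12:49021578-49024624, at 13.8 and 16.7 FPKM for EV. KMT2D-201, which spans the gene, was at 14.6 and 13.9, below the coding sum of EZH2. The place of KMT2D in the order thus depends on counting short transcripts. In DMSO the order by mean was NSD2 at 35.4 ± 4.63 FPKM (SD, n = 2), EZH2 at 31.8 ± 3.84, KMT2D at 29.1 ± 0.874, KMT2A at 19.4 ± 1.86, SETD2 at 16.7 ± 0.417, KMT2B at 15.2 ± 3.50, NSD1 at 13.9 ± 0.803, SETD1A at 13.5 ± 0.805, KMT2C at 9.94 ± 0.279 and SETD1B at 6.98 ± 0.0911. The ranges of the 2 libraries overlapped between NSD2 and EZH2, between EZH2 and KMT2D, and between each neighbouring pair from SETD2 to SETD1A, so these neighbours were not separated. In EV the order was NSD2 at 60.4 ± 6.71, EZH2 at 47.3 ± 1.86, KMT2D at 34.9 ± 1.45, KMT2A at 29.6 ± 0.101, KMT2B at 20.4 ± 0.0944, SETD2 at 15.2 ± 0.60, SETD1A at 11.1 ± 0.982, NSD1 at 9.54 ± 0.432, KMT2C at 9.44 ± 0.402 and SETD1B at 7.11 ± 0.140, and only NSD1 and KMT2C overlapped. WT and K56A kept the EV order except that KMT2C stood above NSD1. The median of the 13130 genes tested in the inhibitor experiment was 12.8 FPKM, and SETD1B exceeded 31.8% of them and EZH2 76.7%. Of the summed FPKM of the 6 H3K4 enzymes, KMT2D held 29.8% to 33.5% over the 10 libraries, KMT2A 20.2% to 28.0% and SETD1B 5.37% to 7.75%.

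With the DOT1L inhibitor, 0 of the 10 enzymes passed an adjusted p of 0.05 in limma, where 0.00762% of the 13130 genes tested passed. All 10 had passed the filter on low values. Their log2 fold changes ran from -0.20 to 0.10 with a median of -0.01, beside 0.00202 over all genes. The lowest and highest bounds of the 95% intervals were -0.61 and 0.40, so log2 changes beyond these lay outside the interval of every enzyme. KMT2B had the lowest value, at -0.20 ± 0.17 (SE, limma adjusted p = 0.773), and this rested on DMSO replicate 1, without which it was 0.02. KMT2A was at 0.10 ± 0.13 and KMT2D at 0.09 ± 0.12, and EZH2 was at -0.06 ± 0.14. At an unadjusted p under 0.05, 0 of the 10 enzymes and 765 of all genes passed. Both EPZ libraries lay above both DMSO libraries for 3 enzymes, KMT2A, KMT2C and KMT2D, against 18.6% of all genes, and below them for 0 against 18.8%. A share of 3 in 10 beside that background is not a result about these enzymes. DOT1L was at -0.25 ± 0.13 (limma adjusted p = 0.756).

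With wild-type CDK9 put back, 0 of 9 enzymes passed, where 0.513% of 12077 genes passed in the fit of the 6 knockdown libraries. The enzyme not in that fit was KMT2C, because transcripts found in just 1 of the 2 knockdown tables held 5.02% of its FPKM, slightly over the limit of 5%. The median log2 fold change was -0.01, beside 0.00785 over all genes, and the intervals spanned -0.33 to 0.25. SETD2 had the smallest adjusted p, at 0.10 ± 0.06 (SE, limma adjusted p = 0.562), with both WT libraries above both EV libraries. KMT2D, at -0.07 ± 0.05, and SETD1B, at -0.09 ± 0.11, were lower in both WT libraries. In all, 1 of 9 enzymes did not overlap upward, against 22.4% of genes, and 2 downward, against 21%. At an unadjusted p under 0.05, 0 of the 9 and 1622 of all genes passed. In its own table of 4 libraries, KMT2C was at 9.81 and 9.17 FPKM for EV and 10.5 and 11.1 for WT, a log2 fold change of 0.17 ± 0.08 (SE, limma adjusted p = 0.489). When only transcripts listed in both tables were summed, KMT2C was at 0.05 ± 0.08. The transcript left out by this was KMT2C-223, at 0.0840 and 0.00987 FPKM for EV and 0.991 and 0.947 for WT. The authors called it for WT over EV (log2 fold change 4.37, DESeq2 adjusted p = 0.000109), at under 1 FPKM.

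With K56A put back, 0 of 9 enzymes passed, where 0.729% of genes passed. The log2 fold changes had a median of 0.05, beside 0.03 over all genes, and intervals between -0.27 and 0.32. KMT2B had the smallest adjusted p, at 0.13 ± 0.06 (SE, limma adjusted p = 0.391), followed by SETD2, at 0.11 ± 0.06 (adjusted p = 0.451), and SETD1A, at 0.13 ± 0.08 (adjusted p = 0.489). These 3 were also the enzymes whose K56A libraries lay above both EV libraries, against 27.4% of all genes, and 0 lay below, against 18%. At an unadjusted p under 0.05, 0 of the 9 and 1817 of all genes passed. KMT2C in its own table was at 0.08 ± 0.08. Both this comparison and the previous one use the same EV libraries.

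K56A was then set against WT, the comparison of mutant with wild-type kinase. Again 0 of 9 enzymes passed, where 0.058% of genes passed. KMT2B, at 0.14 ± 0.06 (SE, limma adjusted p = 0.427), SETD1A, at 0.15 ± 0.08 (adjusted p = 0.502), KMT2D, at 0.09 ± 0.05 (adjusted p = 0.520), and NSD2, at 0.10 ± 0.07 (adjusted p = 0.618), had both K56A libraries above both WT libraries. That is 4 of 9 enzymes, against 25.9% of genes upward, and 0 downward, against 19.5%. The median over the 9 was 0.06, beside 0.01 over all genes, and the intervals lay between -0.27 and 0.33, so the data leave room for changes of up to 1.26-fold. EZH2, at -0.01 ± 0.06, and SETD2, at 0.01 ± 0.06, were nearest to 0. At an unadjusted p under 0.05, 0 of the 9 and 1549 of all genes passed. In the same fit DOT1L rose by 0.32 ± 0.04 (adjusted p = 0.0397, and 0.0172 to 0.437 over its alternatives).

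**Figure D2:**
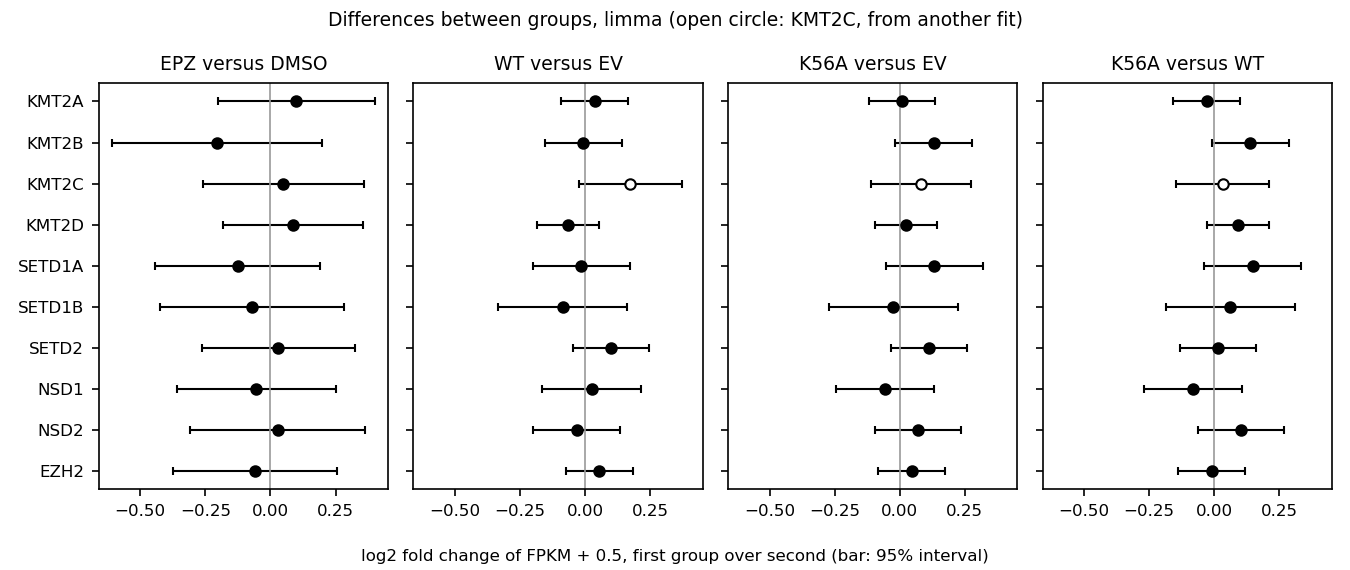
Log2 fold changes of FPKM + 0.5 with 95% intervals from limma for the 10 enzymes in the 4 comparisons, with KMT2C in the knockdown panels (open circles) from its own table or, for K56A versus WT, from a fit of all shared transcripts. Every interval includes 0, and the widest bounds of the filled circles are -0.61 and 0.40 for EPZ versus DMSO and -0.33 and 0.33 for the knockdown comparisons.

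No gene of the lists of partners and opponents of these enzymes passed either. Of 17 other H3 lysine methyltransferases, 14 COMPASS subunits, 10 PRC2 subunits (EZH2 among them), 8 readers of H3K36 methylation and factors that recruit SETD2, and 19 H3 lysine demethylases, 0 rose and 0 fell in each of the 4 comparisons, with 16, 12, 10, 7 and 15 of them in the knockdown fit. Over all genes, 0.00762%, 0.513%, 0.729% and 0.058% passed in turn. For K56A versus WT the median log2 fold change was -0.03 over the COMPASS subunits and -0.04 over the PRC2 subunits, beside 0.06 over the enzymes and 0.01 over all genes. For the core COMPASS subunits DPY30 and ASH2L, the K56A versus WT values were -0.31 ± 0.09 and -0.29 ± 0.09 (SE, limma adjusted p = 0.210 and 0.235). DPY30 was at 20.1 and 17.0 FPKM for WT and 14.8 and 14.8 for K56A, and ASH2L at 13.0 and 13.0 for WT and 10.5 and 10.6 for K56A, so neither gene's groups overlapped, as was so in this direction for 19.5% of all genes. Against EV, WT stood at 0.25 ± 0.09 for DPY30 and 0.23 ± 0.09 for ASH2L (limma adjusted p = 0.268 and 0.300). That comparison uses the same WT libraries as K56A versus WT, so it is not a separate observation. PHF1, an accessory subunit of PRC2, was at 24.5 and 25.4 FPKM for EV and 27.9 and 27.7 for WT (0.15 ± 0.05, limma adjusted p = 0.279). The H3K27 demethylase KDM6B was at 7.62 and 8.16 for WT and 9.36 and 9.73 for K56A (0.26 ± 0.08, limma adjusted p = 0.251). Among the demethylases of H3K9, KDM3A was at 16.2 and 18.6 with DMSO and 23.0 and 21.8 with EPZ (0.36 ± 0.13, limma adjusted p = 0.756).

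KMT2B was the enzyme with the smallest adjusted p, and the genes most like it across the 10 libraries were SPEG, MLXIPL and CDH24. Likeness was the mean absolute difference of log2 values, each centred within its experiment, and came to 0.023, 0.0241 and 0.0268, against a median of 0.124 over 8268 genes. The 3 were picked for the smallest of these differences, so values below that median follow from the choice. So does a high DMSO replicate 1, since KMT2B had one. In that library SPEG was at 30.02 FPKM against 21.8 in replicate 2, MLXIPL at 63.0 against 46.2, and CDH24 at 21.1 against 16.3.

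The tables of the 2 experiments were normalized separately, so levels across them are only set side by side. NSD2 in EV was at 1.70 times its DMSO level, KMT2A at 1.52 times, EZH2 at 1.49 times and KMT2B at 1.34 times. NSD1 stood lower in EV, at 0.687 times, and SETD1A at 0.824 times. The median of 11143 genes was 0.913 times. By this ratio NSD2 exceeded 86.8% of them, KMT2A 81.6%, EZH2 80.7%, KMT2B 75.1%, SETD1A 42.7% and NSD1 29.1%. Ratios of this size were thus common over the genome. The mitochondrial share and DOT1L given above also differed between these libraries, and cells, culture and sequencing run cannot be told apart.

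The EZH2 RNA was made up of different transcripts in the 2 experiments. Each sequence below is read from GENCODE 29 transcripts on GRCh38, in which the named EZH2 transcripts start and end as in the deposited tables. EZH2-203 is a coding transcript with 20 exons. EZH2-209, annotated for nonsense-mediated decay, holds an extra exon of 82 bases (chr7:148818978-148819059, minus strand), which it shares with EZH2-207, and it keeps 2 introns of 443 and 485 bases downstream. The extra exon ends the reading frame. Both lines show the last 30 bases of the same exon and the 21 bases that follow it in each transcript, 5′ to 3′, with the early stop codon in capitals.
EZH2-203: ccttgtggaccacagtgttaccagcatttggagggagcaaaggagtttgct
EZH2-209: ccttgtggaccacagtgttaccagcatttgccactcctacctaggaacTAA
The early stop leaves a coding length of 1002 bases in EZH2-209, against 2238 in EZH2-203.

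EZH2-203 was at 15.8 and 16.7 FPKM with DMSO, 14.9 and 15.5 with EPZ, 4.89 and 8.14 for EV, 2.30 and 9.53 for WT, and 9.46 and 3.65 for K56A. The 2 replicates of each knockdown group lay far apart, so this transcript's level is poorly fixed there. EZH2-209 was at 3.33 and 4.12 with DMSO, 3.40 and 4.79 with EPZ, 19.6 and 16.3 for EV, 18.7 and 17.9 for WT, and 18.1 and 20.6 for K56A. Every knockdown library was above every inhibitor library for EZH2-209, and below it for EZH2-203. As a share of EZH2 FPKM, EZH2-203 held 48.3% to 54.3% in the inhibitor libraries and 4.86% to 19.7% in the knockdown libraries, and EZH2-209 held 11.5% to 15.0% and 33.5% to 42.6%.

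**Figure D3:**
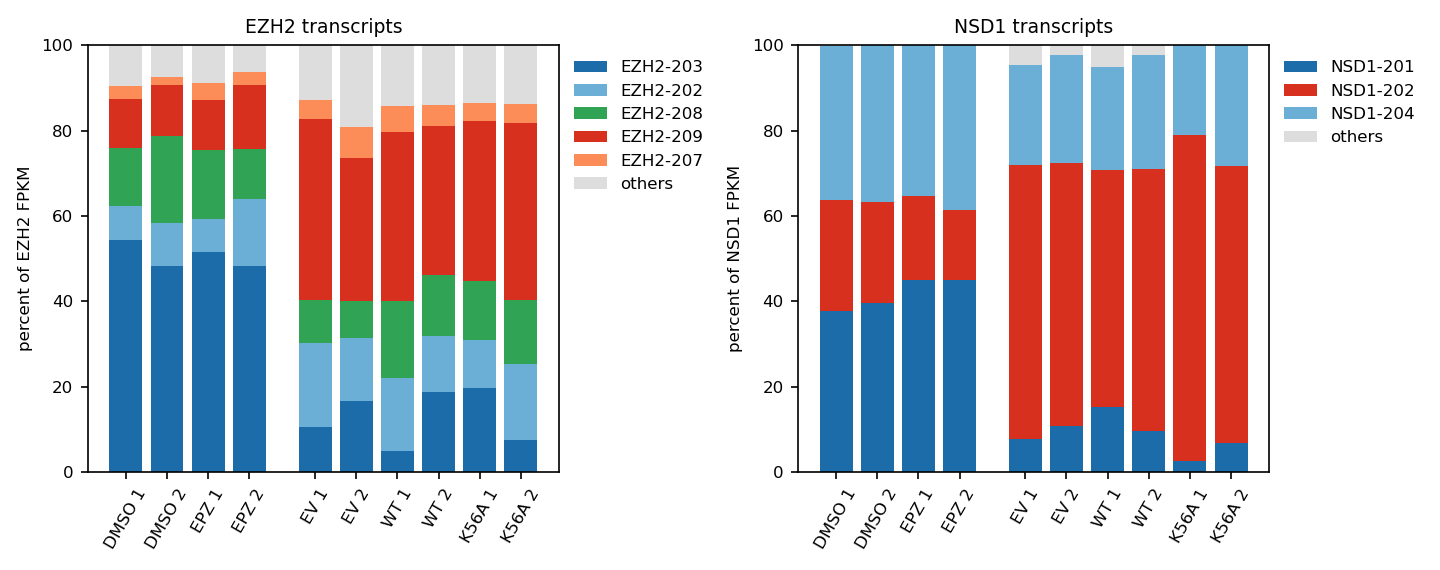
Stacked bars of the percent of EZH2 FPKM (left) and NSD1 FPKM (right) held by named transcripts in each library, with the inhibitor libraries left of the gap and the knockdown libraries right of it. EZH2-209 (red, left) widens from 11.5% to 15.0% to 33.5% to 42.6%, and NSD1-202 (red, right) from 16.4% to 26.1% to 55.7% to 76.4%.

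The transcripts of EZH2 with the extra exon, EZH2-207 and EZH2-209, summed to 4.22 to 5.80 FPKM in the inhibitor libraries and 19.9 to 22.8 in the knockdown libraries. The coding transcripts of EZH2 summed to 22.7 and 27.7 with DMSO, 22.8 and 25.6 with EPZ, 20.5 and 21.4 for EV, 21.3 and 24.6 for WT, and 23.1 and 22.5 for K56A. The higher EZH2 sum in the knockdown libraries thus lay outside its coding transcripts, whose ranges overlapped between the experiments. NSD2 was unlike EZH2, since its coding transcripts summed to 23.3 to 30.9 in the inhibitor libraries and 47.0 to 54.6 in the knockdown libraries. Shares of transcripts annotated for nonsense-mediated decay were compared over 8717 protein-coding genes with at least 5 FPKM in both experiments. The mean share differed by a median of 0 percentage points, and EZH2, at 28.0 points (15.5% against 43.6%), exceeded 99.9% of these genes. The share itself had a median of 0% in each experiment, so many genes had little or no such RNA that could move. That limits what the rank of EZH2 says. Retained-intron transcripts held 10.5% of EZH2 FPKM in the knockdown libraries against 5.10%. That difference of 5.42 points exceeded 69.9% of these genes, whose median difference was 0 points. The experiments still differed broadly. Over genes with at least 5 FPKM, the median retained-intron share was 0% in the inhibitor and 3.86% in the knockdown libraries. The median coding share was 90.0% and 82.5%. The part of retained introns in the level of EZH2-209, which itself keeps introns, was not tested. Transcript FPKM are estimates that divide reads shared by overlapping transcripts.

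Within the knockdown experiment, the EZH2 transcript that stood out in the authors' deposited tables was EZH2-208. It lacks 27 coding bases, or 9 codons, at the end of an early exon (chr7:148846470-148846496, minus strand) that EZH2-203 keeps. The lines show these bases in capitals with 20 bases on each side, to mark where the coding transcripts part.
EZH2-203: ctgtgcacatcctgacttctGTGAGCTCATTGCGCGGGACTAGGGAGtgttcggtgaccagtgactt
EZH2-208: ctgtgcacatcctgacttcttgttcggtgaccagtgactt
EZH2-208 was at 3.93 and 7.02 FPKM with DMSO, 4.67 and 3.72 with EPZ, 4.65 and 4.22 for EV, 8.55 and 7.23 for WT, and 6.56 and 7.46 for K56A. Both WT and both K56A libraries were above both EV libraries, and the DMSO replicates lay further apart than those of any other group. The authors' deposited table gave WT over EV a log2 fold change of 0.82 (adjusted p = 0.000191), and their K56A table gave 0.62 (adjusted p = 0.00579), and these 2 comparisons share the EV libraries. In limma over 47461 transcripts the values were 0.76 ± 0.14 and 0.60 ± 0.14 (SE), with adjusted p = 0.441 and 0.490, so the call depended on the test. Summed with the other transcripts that lack the segment (EZH2-205 and EZH2-206), the level was 4.72 and 4.80 for EV, 8.55 and 7.54 for WT, and 6.56 and 8.13 for K56A. EZH2 as a whole did not follow, at 0.06 ± 0.06 for WT over EV.

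**Figure D4:**
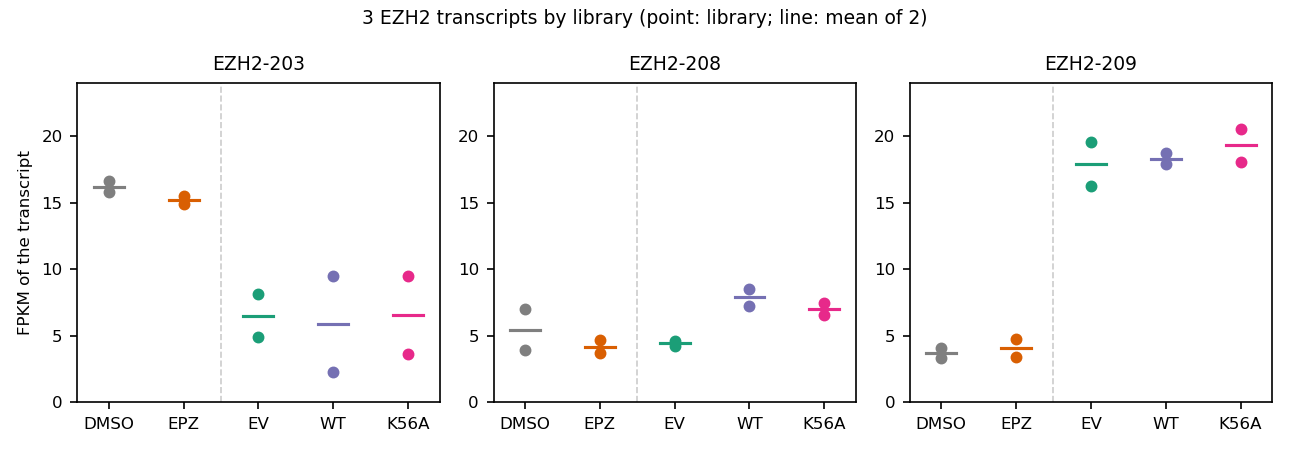
FPKM of EZH2-203, EZH2-208 and EZH2-209 in each library, with points for libraries, lines for the mean of 2 and a dashed line between the separately normalized experiments. EZH2-209 lies at 3.33 to 4.79 FPKM left of the dashed line and at 16.3 to 20.6 right of it, and EZH2-208 is lower in EV (4.22 and 4.65) than in WT and K56A (6.56 to 8.55).

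Calls among the other enzymes' transcripts were few and mostly at low levels. In the tables the authors deposited, the calls included 3 of 71 listed transcripts of the 10 enzymes for EPZ versus DMSO, where they included 1.19% of all transcripts. For WT versus EV it was 3 of 76, where 3.33% were called, and for K56A versus EV 3 of 79, where 3.8% were called. Besides EZH2-208, those that reached 1 FPKM were NSD2-204, KMT2A-223 and SETD2-209. NSD2-204 was at 2.704 and 0.781 FPKM with DMSO and 0 and 0.0947 with EPZ, KMT2A-223 at 0 and 0 with DMSO and 1.12 and 0.0575 with EPZ, and SETD2-209 at 0 and 0 for EV and 1.14 and 0.943 for K56A. For the first 2, replicates of 1 group were further apart than the group means. In limma per transcript, 0 of 38 transcripts of the 10 enzymes passed for EPZ versus DMSO, where 0% of all transcripts passed, and 0 of 51 passed in each knockdown comparison, where 0.0169%, 0.0169% and 0.00421% passed.

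NSD1 also had a different leading transcript in each experiment. NSD1-201 and NSD1-202 have the same coding length, 7281 bases, but NSD1-202 is 12195 bases long against 7688. On chromosome 5, the 3′ end of NSD1-202 is at position 177300210, against 177295762 for NSD1-201. Their starts differ as well, at 177133079 for NSD1-202 and 177134229 for NSD1-201. NSD1-201 was at 5.44 and 5.28 FPKM with DMSO, 5.81 and 6.20 with EPZ, 0.744 and 1.08 for EV, 1.59 and 0.937 for WT, and 0.224 and 0.641 for K56A. NSD1-202 was at 3.76 and 3.15 with DMSO, 2.54 and 2.26 with EPZ, 6.22 and 6.23 for EV, 5.82 and 5.97 for WT, and 6.64 and 6.26 for K56A. The 2 experiments did not overlap for either transcript, in opposite directions. NSD1-204, whose ends in the deposited tables differ from those in GENCODE 29, was at 5.24 and 4.87 with DMSO, 4.56 and 5.30 with EPZ, 2.27 and 2.53 for EV, 2.51 and 2.60 for WT, and 1.83 and 2.72 for K56A. It too was lower in all knockdown libraries, at 24.8% of NSD1 FPKM by mean against 36.7%. That was so although its listed 3′ end, at 177300213, is near that of NSD1-202. The differences between the experiments were given no test, since the tables were normalized separately.

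Such differences between the experiments were common over the genome, so the enzymes are set beside it. Among the 7472 of the 8717 genes with at least 3 transcripts, the share of FPKM that moved between transcripts from one experiment to the other had a median of 14.9 percentage points. NSD1, at 44.1 points, exceeded 99.2% of them, EZH2, at 42.9, exceeded 98.98%, and NSD2, at 28.5, exceeded 89.6%. KMT2A stood at 20.4 points and KMT2D at 9.08. Another transcript led in 15.6% of these genes. Of 24196 transcripts that held at least 10% of their gene in either experiment, 31.3% did not overlap between the inhibitor and the knockdown libraries, and for the enzymes it was 11 of 30. Those included KMT2A-201, at 20.1% to 24.9% of KMT2A FPKM against 0.0368% to 13.2%, and NSD2-203, at 6.16% to 13.9% of NSD2 FPKM against 20.3% to 25.0%. A share of 11 in 30 is near that background.

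By mean share, though not in each library, most of the other enzymes kept the same leading transcript in both experiments. These were KMT2A-213 (41.4% and 42.1% of KMT2A FPKM by mean), KMT2B-201 (39.2% and 47.5%), KMT2C-202 (15.1% and 20.3%), SETD1A-201 (94.8% and 89.0%), SETD1B-203 (95.7% and 100%), SETD2-202 (68.8% and 64.8%) and NSD2-218 (36.2% and 35.6%). For KMT2D, KMT2D-201 led in the inhibitor libraries at 47.6% and KMT2D-202 in the knockdown libraries at 45.3%, and the 2 were close in both. KMT2A had a large share in a retained-intron transcript, KMT2A-205, at 22.9% to 31.2% in the inhibitor libraries and 32.0% to 38.1% in the knockdown libraries. Genes listed on the opposite strand overlap KMT2A, KMT2B, KMT2D and SETD1A, and genes on the same strand overlap KMT2A and NSD1. No source used here gives the strand setting, so reads of opposite-strand neighbours cannot be told apart.

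The promoters of EZH2 and NSD2 are shown, a pick made after values were seen. These 2 enzymes had high levels in all groups and moved together between replicates 1 and 2 of the inhibitor experiment. Neither trait was particular to them. KMT2D was also high in all groups, and SETD2 and KMT2C were also lower in replicate 1 of DMSO and of EPZ. Deviations of same-numbered DMSO and EPZ libraries correlated at 0.245 over 13130 genes. Sequences are from RefSeq (GRCh38.p14), 100 bases before the start site and 30 from it, 5′ to 3′. Capitals mark a match to TTTGGCGC or TTTCCCGC, letters known from binding sites of E2F, the family of cell cycle transcription factors, searched on both strands.
EZH2: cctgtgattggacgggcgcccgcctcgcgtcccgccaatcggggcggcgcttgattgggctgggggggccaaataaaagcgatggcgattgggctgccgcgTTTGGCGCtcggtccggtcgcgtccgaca
NSD2: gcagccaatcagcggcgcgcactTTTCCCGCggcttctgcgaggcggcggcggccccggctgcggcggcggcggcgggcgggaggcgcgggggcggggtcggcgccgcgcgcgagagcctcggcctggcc
These windows are chr7:148884262-148884391 (minus strand) and chr4:1871293-1871422 (plus strand). Of the 10 enzymes, 9 had an entry, with 14 windows of 250 bases before to 50 from a start site. TTTGGCGC was found in EZH2 alone among them, against 0.652% of 35116 promoters, and TTTCCCGC in NSD2 alone, against 1.63%. GGGCGG was found in all 14 windows, against 45.0% of promoters, CCAAT in 4, against 34.6%, and TATAAA in 0, against 11.5%. NSD1 and EZH2 had more than 1 window each, and some NSD1 windows overlap, so these are not counts of separate genes. CpG dinucleotides numbered 7 to 63 per window, and 13 of the 14 windows were above the median of 14 over all promoters. A match describes letters only and does not show that a factor binds.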

How the data were processed

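The members and gene lists were chosen with earlier results of these data known. The authors deposited 3 tables of 4 libraries with FPKM per transcript, each normalized on its own, and both knockdown tables hold the EV libraries. Per the submitters' processing notes RSEM 1.3.3, STAR 2.7.1a, DESeq2 1.32.0, Trim Galore 0.6.6 and GRCh38 were used, in roles not stated. The annotation release is not given in the sources used here. The deposited adjusted p-values and log2 fold changes came, per the file headers, from edgeR (inhibitor) and DESeq2 (knockdown). Another 4 summary columns were not used. The depth is unknown.

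FPKM were summed per gene. K56A libraries were rescaled by the ratio of the EV values in both knockdown tables (1.0007 and 1.0006), and the knockdown fit used transcripts listed in both tables, leaving out genes with over 5% of FPKM in transcripts of 1 table. Genes reaching 1 FPKM in 2 or more libraries entered the test, on log2(FPKM + 0.5), which understates changes of low genes, with limma 3.58.1 in R 4.3.3 (intensity trend, two-sided, Benjamini-Hochberg, 0.05). With 2 libraries a group, no exact permutation test could pass. The script was tested on simulated data. Named were all members, DOT1L, CDK9, list genes that passed or had the 2 smallest adjusted p, the 3 genes most like the leading member, each member's leading transcript and transcripts called by the authors that reach 1 FPKM. KMT2A-201, KMT2A-205, NSD2-203, EZH2-203, EZH2-208, EZH2-209, NSD1-201 and NSD1-204, the comparison of transcript make-up between experiments (over transcripts in both knockdown tables) and the per-transcript fit were picked after values were seen. So were KMT2C-223 and the promoters shown, those of EZH2 and NSD2. Alternatives covered pseudocount, filter, scaling, length, transcripts, variance prior, replicate block and left-out libraries. Tables were handled with numpy 2.4.6 and pandas 2.3.3 in Python 3.11.15, and plots drawn with matplotlib 3.10.9.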

Additional observations from a re-analysis of the deposited data

How the results depend on the processing

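In all alternatives, 15 for EPZ versus DMSO, 17 for WT versus EV, 17 for K56A versus EV and 16 for K56A versus WT, 0 of the enzymes passed. The lowest adjusted p of an enzyme was 0.0737, 0.307, 0.211 and 0.348 in turn. Counts over all genes moved far more, from 1 to between 0 and 3 for EPZ versus DMSO (34 to 1560 with 1 library left out, the highest without DMSO replicate 2), from 62 to between 1 and 85 (2 to 7) for WT versus EV, from 88 to between 4 and 131 (6 to 38) for K56A versus EV, and from 7 to between 0 and 19 (1 to 2) for K56A versus WT. The limit on transcripts of 1 table and the test per transcript were chosen as alternatives after seeing the data.

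Values near 0 changed sign. With protein-coding transcripts only, KMT2C was at -0.126 for EPZ versus DMSO, KMT2A at -0.0575 and KMT2B at 0.0805 for WT versus EV, KMT2A at -0.101 for K56A versus EV and SETD2 at -0.245 for K56A versus WT. With the length trend removed, with or without the replicate block, NSD2 was at -0.0103, SETD2 at -0.00343 and CDK9 at 0.0432 for EPZ versus DMSO, and KMT2A at -0.00267 for K56A versus EV. Under median ratio scaling KMT2A was at -0.012 for K56A versus EV and SETD2 at -0.00139 for K56A versus WT, and scaled without mitochondrial genes KMT2A was at -0.00879 for K56A versus EV. The cause was not tested.

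Leaving out 1 library at a time also turned signs (the lone library was taken to vary like the other groups). For EPZ versus DMSO the values ran from -0.181 to 0.0628 for EZH2, -0.434 to 0.0243 for KMT2B, -0.111 to 0.00264 for NSD1, -0.105 to 0.159 for NSD2, -0.168 to 0.0261 for SETD1B, -0.0219 to 0.083 for SETD2 and -0.126 to 0.095 for CDK9. For WT versus EV they ran from -0.00113 to 0.0754 for KMT2A, -0.069 to 0.055 for KMT2B, -0.0188 to 0.0691 for NSD1, -0.145 to 0.0801 for NSD2 and -0.101 to 0.0718 for SETD1A. For K56A versus EV they ran from -0.0273 to 0.0438 for KMT2A, -0.0181 to 0.0655 for KMT2D, -0.126 to 0.0122 for NSD1, -0.0428 to 0.183 for NSD2 and -0.171 to 0.121 for SETD1B. For K56A versus WT they ran from -0.0636 to 0.0441 for EZH2, -0.0672 to 0.00939 for KMT2A, -0.0846 to 0.207 for SETD1B and -0.0127 to 0.0409 for SETD2.

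With the replicate number as a block, 0 enzymes passed in any comparison, and all-gene calls were 2, 26, 50 and 3. The labels do not say that the numbers pair the libraries, and deviations of same-numbered libraries correlated at 0.245 (DMSO and EPZ), 0.0347 (EV and WT), -0.0147 (EV and K56A) and -0.0324 (WT and K56A).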
